A study of Mus musculus with 6 samples.

Results

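The immediate early genes described here are Fos, Fosb, Jun, Junb, Egr1, Egr3, Ier2, Atf3, Nr4a1 and Dusp1, taken by gene symbol from the read-count table. All 10 were found among its 18404 genes, and all 10 passed the filter on low counts that left 14920 genes for testing. The RNA came from mouse ear skin, collected from pups on postnatal day 3 and snap-frozen. There were 3 libraries labelled Control and 3 labelled ecko, from pups with an endothelial knockout of Kdr, the gene of the VEGF receptor VEGFR2. Tamoxifen is recorded for both groups, given at 60 µg per day from postnatal day 1, and the series name carries a time of 48 h. The controls are described as littermates. Their alleles and the Cre driver are not given in the sources used here, nor is whether each library is 1 pup, so a p-value here reflects only how these libraries varied, which may be technical.

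Immediate early genes are switched on within minutes of a stimulus without the need for new protein synthesis. Growth factor, stress and mechanical signals reach them through MAP kinases, the serum response factor SRF with its ELK partners, and CREB. Their transcripts are short-lived, and the proteins are mostly transcription factors or, as with the phosphatase gene Dusp1, brakes on the kinases that induced them. VEGF acting on VEGFR2 induces Egr1, Egr3 and Nr4a1 in cultured endothelial cells. The same genes also respond to tissue handling and to dissection, and they are transcribed in many skin cell types. The comparison library by library therefore asks how even the collection or acute signalling was, and the comparison of groups asks whether their levels in whole ear skin differed with the knockout. In RNA of whole tissue, fewer cells of a type and less RNA per cell cannot be told apart.

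The promoter table of RefSeq in GRCm38.p6 held 7 of the 10 genes, namely Fos, Fosb, Jun, Junb, Atf3, Nr4a1 and Dusp1. The 250 bases before the transcription start that the table lists are printed for Fos, Fosb, Atf3 and Dusp1, the 4 genes that stood furthest above the other libraries in control 3, the pattern on which the results turn. Capitals mark TGACG on either strand, the half-site of the cyclic AMP response element that CREB and ATF proteins bind, and in Dusp1 they cover the full element TGACGTCA. The sequences read 5′ to 3′ on the strand of the gene. They lie at chr12:85473640-85473889 (plus strand) for Fos, chr7:19310046-19310295 (minus strand) for Fosb, chr1:191183334-191183583 (minus strand) for Atf3 and chr17:26508473-26508722 (minus strand) for Dusp1. The listed start of Fosb is 73 bases inside the RefSeq span of the gene given below, so 73 of its printed bases lie within that span.
Fos: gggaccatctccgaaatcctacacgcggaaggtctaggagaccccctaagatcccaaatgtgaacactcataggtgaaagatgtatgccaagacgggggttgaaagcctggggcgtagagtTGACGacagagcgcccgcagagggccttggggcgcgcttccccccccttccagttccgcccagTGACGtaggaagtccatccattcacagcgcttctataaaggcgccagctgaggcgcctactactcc
Fosb: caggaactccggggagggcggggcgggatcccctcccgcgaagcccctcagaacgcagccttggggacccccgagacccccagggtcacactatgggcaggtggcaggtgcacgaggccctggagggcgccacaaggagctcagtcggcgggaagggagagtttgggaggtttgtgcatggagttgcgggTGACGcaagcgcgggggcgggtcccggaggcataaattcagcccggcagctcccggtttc
Atf3: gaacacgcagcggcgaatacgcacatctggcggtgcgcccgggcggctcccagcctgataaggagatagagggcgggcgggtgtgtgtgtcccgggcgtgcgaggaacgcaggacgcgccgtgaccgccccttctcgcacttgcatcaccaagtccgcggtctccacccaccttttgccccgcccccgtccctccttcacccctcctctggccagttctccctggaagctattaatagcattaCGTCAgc
Dusp1: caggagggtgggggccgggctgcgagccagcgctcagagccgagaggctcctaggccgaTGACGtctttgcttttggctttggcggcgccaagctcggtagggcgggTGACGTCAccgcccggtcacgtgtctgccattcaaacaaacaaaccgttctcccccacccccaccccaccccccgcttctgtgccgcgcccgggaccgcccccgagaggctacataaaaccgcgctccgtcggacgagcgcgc

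The half-site TGACG was present in 6 of the 7 promoters, all but that of Jun, and in 17.9% of the first listed promoters of 27025 genes searched the same way. This motif was added after the sequences had been read, so the contrast is no test of the set. The promoters of all genes were not matched to these for base content. Its position closest to the start was -66 in Fos, -60 in Fosb, -7 in Atf3, -106 in Junb and -40 in Nr4a1. Positions count from the start the table lists, which for Nr4a1 is an internal one, 12944 bases into the RefSeq span of the gene, so its whole window lies within that span. The full element TGACGTCA, which contains the half-site on both strands, stood in Dusp1 alone of the 7, at -143, and in 1.62% of all promoters. The CArG box bound by SRF was found in 0 of the 7 windows and in 1.40% of all promoters, and the AP-1 motif TGANTCA in 0 and 6.87%. The EGR motif GCGTGGGCG was in 0 of the 7 and in 0.540% of all promoters, and its variant GCGGGGGCG was in those of Fosb and Nr4a1 and in 2.56%. The TATAAA box was in that of Fos, at -33, and in 13.0% of all. The GC box GGGCGG, which overlaps the EGR variant at both of its places, was in 6 of the 7, all but Junb, and in 32.9% of all. Both strands were searched. Only the 250 bases before the listed start were searched, and Egr1, Egr3 and Ier2 were not in the promoter table. A count of 0 therefore says nothing of sites further upstream or in those genes. A match is a description of these letters and not a measured binding site.

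Each library held 16987130 to 17979182 expected counts, that is, estimated reads per gene, and control 3 was the library least like the others. The chi-square per gene between pairs of libraries was 13.2 to 19.8 in the pairs with control 3 and 4.18 to 11.5 in the others. Control 2 and ecko 3 were nearly without Y-linked reads, with 4 and 6 counts of Ddx3y, so each group held 1 such library. The deleted gene Kdr (Entrez 16542) had 89.9, 103 and 77.1 CPM in controls 1 to 3 and 19.4, 24.2 and 21.6 CPM in ecko 1 to 3 (CPM, counts scaled to library size after TMM normalization). Its log2 fold change was -2.05 ± 0.12 (SE), and it was the 1 gene called by edgeR's quasi-likelihood test (adjusted p 0.0002). Every marker of the lists used to check the tissue was above 0 in at least 1 library, among them those of keratinocytes, fibroblasts, endothelium, skeletal muscle and cartilage.

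Per kilobase of annotated exon, the 10 genes spanned a wide range of levels in this tissue. Egr3 and Jun were highest, with 36.4 ± 4.58 and 35.5 ± 5.11 CPM per kilobase (SD, n = 6 libraries of both groups). Egr3 was above Jun in 4 of the 6 libraries, so their order did not exceed the spread. Ier2 followed with 30.1 ± 2.26, Egr1 with 27.6 ± 3.20 and Junb with 25.4 ± 2.15 CPM per kilobase, and the ranges of neighbours overlapped from Egr3 down to Junb. Fos stood lower at 14.0 ± 3.26 CPM per kilobase, and its range did not reach that of Junb but met that of Dusp1. Dusp1 had 8.43 ± 1.67 CPM per kilobase, Nr4a1 4.74 ± 0.698 and Atf3 4.55 ± 1.64. Nr4a1 was above Atf3 in 5 of 6 libraries, with ranges that overlapped. Fosb was lowest, at 1.02 ± 1.09 CPM per kilobase, with an SD as large as its mean.

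The level of the set differed more between control 3 and the other libraries than between the groups. In 9 of the 10 genes control 3 was the highest of the 6 libraries, where the share of all tested genes highest in control 3 was 27.5%. The tenth, Egr3, was lowest in control 3, as were 29.3% of all genes. The mean over the 10 genes of log2 CPM, centred on each gene's mean over the 6 libraries, was 0.46 in control 3. It was -0.18 in control 1, -0.07 in control 2, -0.13 in ecko 1, -0.12 in ecko 2 and 0.04 in ecko 3. Without Fosb the value of control 3 was 0.29 and the others lay between -0.12 and 0.05. The median of all genes was between 0.00 and 0.01 in every library, where the scaling and centring place it.

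**Figure D1:**
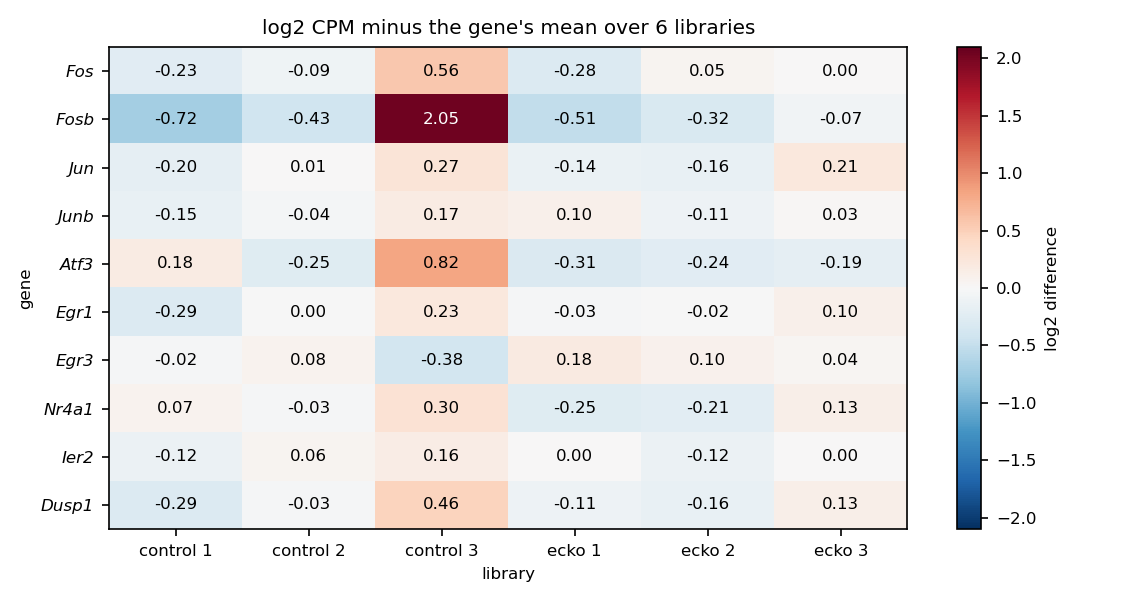
Each cell gives the log2 CPM of an immediate early gene (rows) in a library (columns) minus that gene's mean over the 6 libraries, with red above and blue below the mean. Control 3 holds the highest value in 9 of the 10 rows and the lowest in the row of Egr3, with Fosb at 2.05.

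Among the AP-1 genes, whose products pair as FOS-JUN dimers on DNA, Fosb showed the widest spread. Fosb (Entrez 14282, chromosome 7, 19302696 to 19310118, minus strand) had 51, 64 and 351 expected counts in controls 1 to 3 and 60, 68 and 78 in ecko 1 to 3. These are 2.87, 3.54 and 20.2 CPM against 3.34, 3.81 and 4.56 CPM. Control 3 was thus 4.44 times the next highest library, ecko 3, while the other 5 libraries stayed within 1.59-fold. Of the 14333 tested genes with a mean of at least 1 CPM over those 5 libraries, Fosb was the 1 gene with a ratio that large. The median ratio over the 4006 of them highest in control 3 was 1.07. The Fosb group means were 8.88 ± 9.84 CPM in the controls and 3.90 ± 0.617 CPM in ecko (SD, n = 3). The groups overlapped, since controls 1 and 2 were below or within the ecko range.

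Fos (Entrez 14281, chromosome 12, 85473890 to 85477274, plus strand) had 27.4, 30.3 and 47.6 CPM in controls 1 to 3 and 26.5, 33.4 and 32.3 CPM in ecko 1 to 3. Control 3 was 1.43 times the next highest library, ecko 2, and controls 1 and 2 lay inside the ecko range. Jun (Entrez 16476, chromosome 4, 95049036 to 95052222, minus strand), the partner of FOS proteins in AP-1, had 97.9, 113 and 136 CPM in the controls and 102, 100.2 and 130.2 CPM in ecko. Here ecko 3 came close to control 3, which was 1.04 times as high. Junb (Entrez 16477, chromosome 8, 84976909 to 84978748, minus strand), a JUN relative with weaker activating capacity, had 52.6, 56.8 and 65.4 CPM in the controls and 62.4, 54.0 and 59.4 CPM in ecko, and all 3 ecko values lay within the control range. Jun overlaps the antisense gene Junos, and Junb the opposite-strand gene Prdx2, in GENCODE M21. The strand setting of the counting is not given in the sources used here, so reads of these pairs cannot be told apart.

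Atf3 (Entrez 11910, chromosome 1, 191170296 to 191183333, minus strand), a stress-induced ATF family factor that represses many of its targets, came nearest to a group difference. It had 10.6, 7.86 and 16.7 CPM in controls 1 to 3 and 7.57, 7.91 and 8.19 CPM in ecko 1 to 3. The ecko libraries were tightly grouped, controls 1 and 3 were above all of them, and control 2 lay among them. Atf3 was also the one gene of the set in which control 1 was the second highest library. The control mean was 11.7 ± 4.50 CPM and the ecko mean 7.89 ± 0.311 CPM (SD, n = 3). In the edgeR fit its log2 difference came to -0.57 ± 0.25 (SE), at an unadjusted p of 0.0480 and an adjusted p of 0.553. A small misc_RNA gene, Gm24748, lies on the opposite strand within its span.

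The zinc finger genes of the EGR family went in opposite directions in control 3. Egr1 (Entrez 13653, chromosome 18, 34861207 to 34864956, plus strand), the classic serum-response transcription factor, had 101, 123 and 144 CPM in the controls and 121, 122 and 132 CPM in ecko. The 3 ecko values fell inside the control range, with control 1 lowest and control 3 highest of all. Egr3 (Entrez 13655, chromosome 14, 70077317 to 70082613, plus strand), a relative with a like DNA-binding domain, had 157, 168 and 122 CPM in the controls and 181, 170.2 and 164 CPM in ecko. The next lowest library was 1.29 times control 3. In the other 5 libraries Egr3 stayed within 1.15-fold.

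Nr4a1 (Entrez 15370, chromosome 15, 101253902 to 101274795, plus strand), an orphan nuclear receptor also known as Nur77, had 17.3, 16.2 and 20.3 CPM in the controls and 13.8, 14.2 and 18.0 CPM in ecko. Ecko 1 and ecko 2 were below all controls, while ecko 3 was above controls 1 and 2. Nr4a1 was the one gene of the set whose highest and lowest libraries were further apart within ecko (1.31-fold) than within the controls (1.26-fold). Its log2 fold change was -0.23 ± 0.13 (SE), edgeR adjusted p 0.632.

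Ier2 (Entrez 15936, chromosome 8, 84661331 to 84662852, minus strand), a small nuclear protein gene named for its immediate early response, was the steadiest of the set. It had 42.2, 47.8 and 51.1 CPM in the controls and 45.8, 42.2 and 45.8 CPM in ecko, a ratio of 1.21 between the highest and lowest library. Dusp1 (Entrez 19252, chromosome 17, 26505591 to 26508472, minus strand) encodes a phosphatase that switches off MAP kinases. It had 22.4, 27.01 and 37.9 CPM in the controls and 25.5, 24.6 and 30.0 CPM in ecko. Control 3 was 1.26 times the next highest library, ecko 3, and controls 1 and 2 fell below or within the ecko range. Dusp1 followed the mean profile of the 10 genes most closely, at a root mean square distance of 0.065 on the log2 scale, against 0.39 for Egr3 and 0.72 for Fosb. Ergic1 and the pseudogene Gm8225, on the opposite strand, overlap Dusp1. So do the pseudogene AC122252.4 and the sense intronic gene AC122252.1, on the strand of Dusp1 itself.

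**Figure D2:**
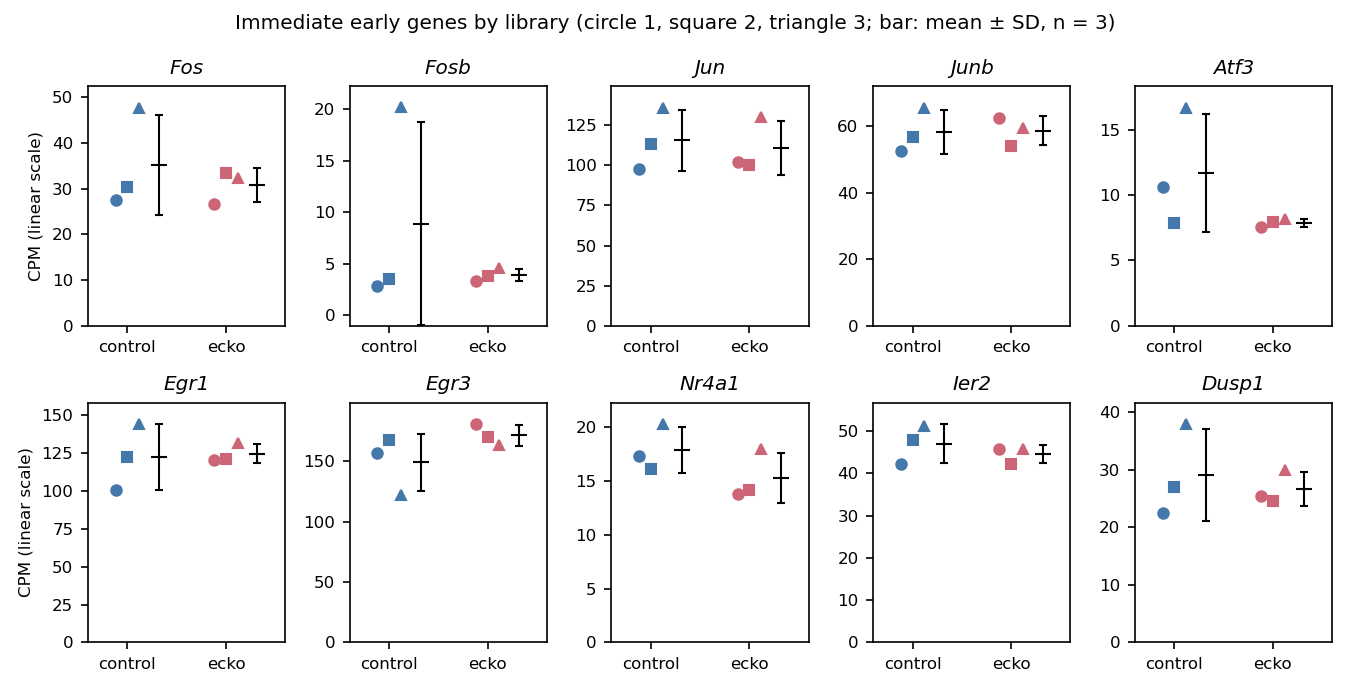
Points give the CPM (linear axis) of each gene in each library, blue for control and red for ecko, with circle, square and triangle for replicates 1, 2 and 3, and black bars give the mean ± SD of 3 libraries. The triangle of control 3 is the highest point in all panels except that of Egr3, where it is the lowest, and Fosb runs from 2.87 to 20.2 CPM.

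None of the 10 genes passed the test of ecko against control at the adjusted threshold. The edgeR test called 0 of 10 members, against 0.0067% of all 14920 genes (the 1 gene Kdr), and DESeq2 and limma-voom also called 0 members. At an unadjusted p under 0.05 there was 1 member, Atf3, where the share over all genes was 9.01%. The adjusted p-values ran from 0.553 (Atf3) to 0.982 (Junb). In 0 of the 10 the groups were free of overlap, where 7.55% of all genes were higher and 8.11% lower in ecko without overlap. In 7 of the 10 the ecko mean was lower, beside 50.5% of all genes, and the median log2 fold change was -0.10 against 0.00 for all genes. A p above the threshold does not show equal levels.

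The sizes with their errors were as follows. Fosb had a log2 fold change of -1.18 ± 0.89 (SE), which was -0.59 with limma-voom, and Fos had -0.19 ± 0.21. Jun and Junb had -0.06 ± 0.14 and 0.01 ± 0.09. Egr1 had 0.03 ± 0.12 and Egr3 0.20 ± 0.11, the one value above 0.1 among the 10. Ier2 had -0.08 ± 0.09 and Dusp1 -0.12 ± 0.18. In 8 of the 10 the difference between groups, on the log2 scale, was smaller than the SD over the 3 controls, and the exceptions were Atf3 and Nr4a1.

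Leaving out control 3 turned the direction in 4 of the 10 genes, Fos, Fosb, Jun and Dusp1, and left 7 of 10 with a higher ecko mean. The median log2 fold change of the set was then 0.09. Fosb went to 0.29 ± 0.20 (SE), Fos to 0.10 ± 0.10, Jun to 0.08 ± 0.13 and Dusp1 to 0.12 ± 0.11, with edgeR adjusted p of 0.709 to 0.897. Atf3 and Nr4a1 stayed below 0, at -0.22 ± 0.15 and -0.12 ± 0.13, and Atf3 thus moved from the -0.57 found with all libraries. Egr3 went from 0.20 to 0.08 ± 0.06. Called members numbered 0 without control 3 as well.

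**Figure D3:**
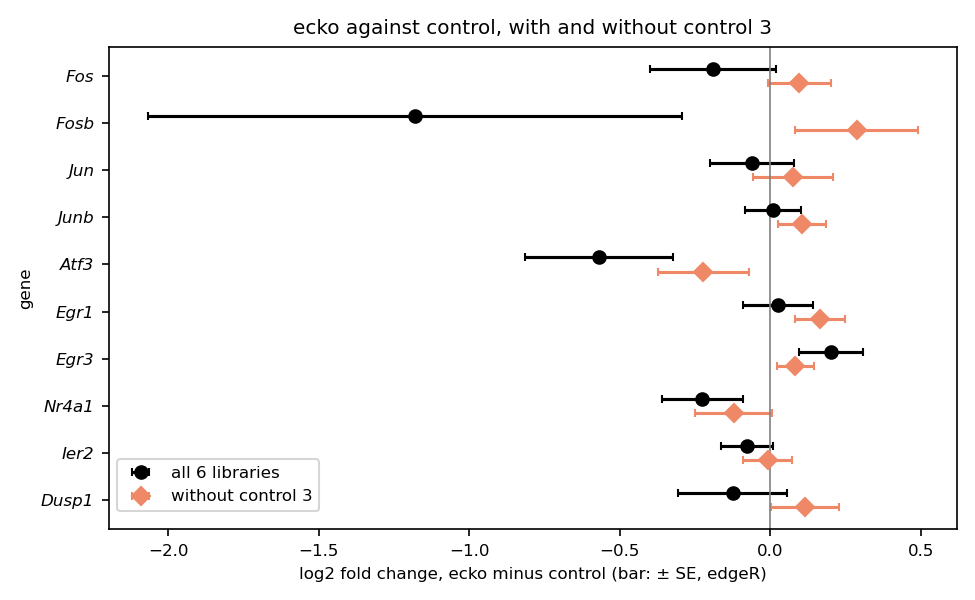
Points give the edgeR log2 fold change of ecko minus control with its SE for each gene, in black with all 6 libraries and in orange without control 3, and the grey line marks 0. Fosb moves from -1.18 to 0.29, and the error bars of the set are narrower without that library for all 10 genes.

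The spread of the set was larger in the controls than in ecko, with control 3 the highest or lowest library in all 10 genes. A spread of the controls without control 3 was not worked out. The ratio of the highest to the lowest of the 6 libraries ran from 1.21 (Ier2) to 7.06 (Fosb), with a median of 1.47, against a median of 1.27 over the 14313 tested genes with a mean of at least 1 CPM. The SD of log2 CPM was larger in the controls than in ecko in 9 of the 10 genes, all but Nr4a1, and in 63.8% of those 14313 genes. Its median over the members was 0.25 in the controls and 0.13 in ecko, against 0.12 and 0.09 over those genes. Without control 3 the ratio of highest to lowest ran from 1.13 to 1.59 with a median of 1.31, against 1.20 over the same genes. Among those 5 libraries control 1 was the lowest in 7 of the 10 genes and ecko 1 in the other 3. Ecko 3 was the highest of them in 5, namely Fosb, Jun, Egr1, Nr4a1 and Dusp1. The shares of all genes lowest or highest in each of those 5 libraries were not worked out. Whether these counts differ from those of all genes is therefore not known.

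Further genes of the early response showed a similar but smaller lift in control 3. Of 66 genes listed (other AP-1, EGR and NR4A members, early genes of several classes, dual specificity phosphatases and genes that VEGF induces in endothelium), 62 were tested. Of these 34 were highest in control 3, beside 27.5% of all genes, and 11 were lowest. Their mean centred log2 CPM was 0.18 in control 3 and -0.06 to 0.01 in the others. The edgeR test called 0 of the 62, with an unadjusted p under 0.05 in 1 higher (Plau) and 1 lower (Dusp8) beside 9.01% of all genes, and DESeq2 and limma-voom called 0. The median log2 fold change was -0.06.

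**Figure D4:**
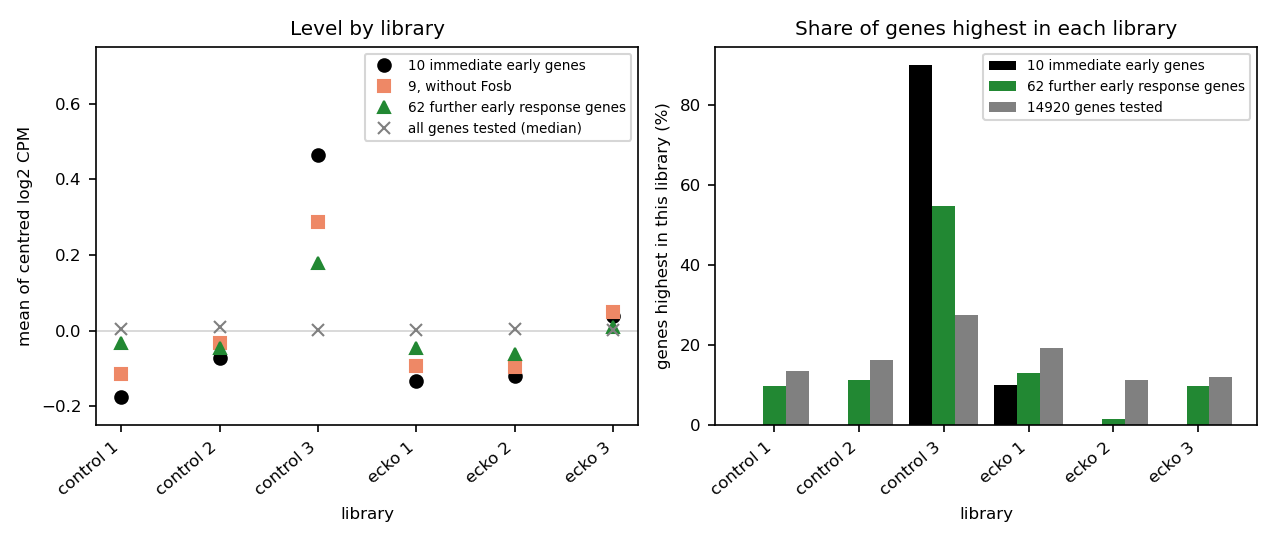
The left panel plots, for each library, the mean centred log2 CPM of the 10 immediate early genes, of the 9 without Fosb and of 62 further early response genes, with the median of all tested genes, and the right panel gives the share of each set that is highest in each library. Control 3 is at 0.46 for the 10 genes and 0.18 for the further genes, and holds the highest value of 9 of 10 members, beside 27.5% of all genes.

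Among the relatives of the members, Jund, the third JUN gene, had 94.0, 101 and 148 CPM in the controls and 84.7, 91.5 and 95.2 CPM in ecko, with control 3 again highest (log2 fold change -0.34, edgeR adjusted p 0.594). The AP-1 partners Batf3 and Batf had log2 fold changes of -0.67 and 0.26 at under 2 CPM, and did not pass. Fosl1, Egr4, Il6 and Cxcl1 had too few reads to be tested. Of the wider list, the clock and early response gene Per1 had 27.2, 26.8 and 103 CPM in the controls and 35.9, 30.8 and 28.1 CPM in ecko (-0.73 ± 0.66 SE, adjusted p 0.772). Control 3 therefore stood apart in Per1 as it did in Fosb. Arc, a gene induced by neuronal activity, had 0.51 ± 0.30, and the chemokine gene Cxcl2 had 17 counts or fewer in every library (-1.33 ± 0.78).

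Phosphatases that limit MAP kinases, the family of Dusp1, held 8 further tested genes, of which 4 were highest in control 3, beside 27.5% of all genes. Dusp8 had 22.1, 24.0 and 34.9 CPM in the controls and 22.0, 18.4 and 21.4 CPM in ecko (-0.39 ± 0.17, edgeR adjusted p 0.552). Its groups did not overlap by a narrow margin, as 1 of the 8, beside 8.11% of all genes lower in ecko without overlap. Dusp14 and Dusp2 had -0.26 and -0.21 and overlapping groups. Of 8 genes that VEGF induces in endothelial cells, 0 passed and 5 had a higher mean in ecko, beside 7381 of all 14920 genes. The protease gene Plau led them with 41.4, 38.0 and 37.2 CPM in the controls and 51.5, 43.6 and 45.0 CPM in ecko (0.26 ± 0.09, edgeR adjusted p 0.471). Dusp5 and Klf10 followed with 0.13 and 0.11.

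The kinases and factors upstream of the members varied less. In 22 such genes the median ratio of highest to lowest library was 1.19, 0 passed the edgeR test (2, Elk3 and Srf, had an unadjusted p under 0.05, beside 9.01% of all genes), and 14 had a lower ecko mean, beside 50.5%. The SRF partner gene Elk3 had 57.9, 68.3 and 71.8 CPM in the controls and 56.4, 54.2 and 57.3 CPM in ecko (-0.24 ± 0.09 SE, edgeR unadjusted p 0.0182, adjusted p 0.498). Srf itself had 61.9, 73.0 and 68.3 CPM against 59.5, 58.0 and 61.8 CPM (-0.18 ± 0.08, adjusted p 0.539), and Elk4 had -0.25 ± 0.23. In 3 of the 22 genes, Elk3 and Srf among them, all ecko libraries were below all controls, beside 8.11% of all genes. Of 6 tested genes that act on AU-rich mRNA, a class of sequence found in many early transcripts, 0 passed. Hnrnpd (-0.17), Elavl1 (-0.15) and Zfp36l2 (0.11) were furthest from 0. The first pair had an edgeR unadjusted p under 0.05, beside 9.01% of all genes. In 3 of these 6 all ecko libraries were below all controls, beside 8.11% of all genes.

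Nab2, whose protein binds EGR factors and represses them, shared the direction of Egr3 in control 3. It had 62.1, 63.1 and 30.0 CPM in the controls and 58.1, 56.7 and 62.9 CPM in ecko. Control 3 was the lowest library by a wide margin and the other 5 were close together. Nab1, its relative, was highest in control 3, at 114 CPM against 93.1 to 107 CPM in the other libraries. Neither passed the edgeR test (adjusted p 0.858 and 0.995).

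Other gene groups moved with control 3 or with the groups beside the immediate early genes. All 8 heat shock genes were highest there, beside 27.5% of all genes. Their summed level was 2220 to 2440.1 CPM in the controls and 2015 to 2138 CPM in ecko. Hspa1b had 79.5, 83.6 and 84.2 CPM in the controls and 67.6, 68.4 and 61.6 CPM in ecko (-0.32 ± 0.07, edgeR adjusted p 0.252), Hspa1a had -0.32 and Hsph1 -0.24, and 0 of the 8 passed, with an unadjusted p under 0.05 in 4, beside 9.01% of all genes. In 4 of the 8 the groups did not overlap and ecko was lower, beside 8.11% of all genes. All 7 skeletal muscle markers were lowest in control 3, beside 29.3% of all genes. Their sum was 4998 CPM there, 7489 and 8923 CPM in the other controls and 7002 to 8515 CPM in ecko. Of 5 red cell markers 4 were lowest there, with sums of 841 to 1939 CPM in the controls and 1123 to 1490 CPM in ecko. All 5 basal keratinocyte markers were highest there (6233 to 6912 CPM in the controls, 6003 to 6316 CPM in ecko), as were 5 of 6 fibroblast markers (34178 to 39822 and 36513 to 37684 CPM). Of 6 macrophage markers 4 were lowest there, with sums of 488 to 569 CPM in the controls and 532 to 595 CPM in ecko. Control 3 was highest in 3 of 5 differentiated keratinocyte, 1 of 10 pan-endothelial, 1 of 6 lymphatic endothelial and 1 of 4 cartilage markers. It was lowest in 2 of 5 neutrophil, 1 of 6 lymphatic endothelial, 1 of 4 cartilage and 1 of 4 adipocyte markers. Of 10 pan-endothelial markers 9 had a lower ecko mean, beside 50.5% of all genes, and 5 were lower without overlap, beside 8.11%. Their median log2 fold change was -0.16, with sums of 446 to 534 CPM in the controls and 407 to 437 CPM in ecko. The edgeR test called 0 of these 10, with an unadjusted p under 0.05 in 4, beside 9.01% of all genes. Most other marker lists were also one-sided, beside the 50.5% of all genes with a lower ecko mean. The ecko mean was lower in 5 of 5 basal keratinocyte, 5 of 5 red cell and 4 of 4 adipocyte markers. It was also lower in 5 of 6 lymphatic endothelial and 4 of 5 differentiated keratinocyte markers. It was lower in 0 of 6 macrophage, 0 of 7 skeletal muscle, 1 of 6 fibroblast and 1 of 5 neutrophil markers. For cartilage it was 2 of 4. The neutrophil markers had the largest median log2 fold change, 1.24, and 0 of these 5 passed the edgeR test. Their sums were 8.41 to 20.3 CPM in the controls and 11.8 to 50.9 CPM in ecko. No marker of these lists was at 0 in all libraries. The part of these groups in the level of the early genes was not tested.

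The genes whose profile over the 6 libraries lay closest to the mean profile of the set were found by root mean square distance of centred log2 CPM, among 5877 genes with at least 5 CPM and enough range. The 10 closest were Dusp10, Arl4c, Chga, Cnksr3, H3f3b, Chmp4c, Nhlrc2, Epc2, Ppp1r15a and Stox2, at distances of 0.02 to 0.05 on the log2 scale. Dusp10, a phosphatase of stress-activated kinases, had 15.5, 17.1 and 24.7 CPM in the controls and 16.4, 16.9 and 18.8 CPM in ecko. Ppp1r15a, the stress-induced GADD34 gene, had 29.0, 30.4 and 42.6 CPM in the controls and 31.3, 30.8 and 32.8 CPM in ecko. In each of the 10, control 3 held the highest value, which the choice by distance sets.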

How the data were processed

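Poly(A) RNA of ear skin was sequenced in 3 control and 3 ecko libraries. The authors deposited expected counts per gene, that is, estimated reads not scaled between libraries (10.1% to 10.4% of values per library are not whole). Per the submitters' processing notes, HISAT2 2.2.1, Bowtie2 2.4.5, RSEM 1.3.1 and GRCm38.p6 were used, with no role given for each tool. Annotation and strand setting are not given in the sources used here. The labels name no molecular identifiers. The 10 members and all lists were chosen with earlier results of these data known.

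Counts were rounded to whole numbers. The test was edgeR's quasi-likelihood test (edgeR 4.0.16, R 4.3.3, filterByExpr with a minimum count of 10, TMM, robust estimation). It gave two-sided p-values adjusted by Benjamini-Hochberg over 14920 genes at a threshold of 0.05. SE is the absolute log2 fold change over the square root of F. Log2 CPM used a prior count of 2. The fit was tested on simulated data. Alternatives were DESeq2 1.42.0 (Wald test, or its size factors in edgeR), limma-voom (limma 3.58.1), other filters, no robust estimation, a replicate block and leaving out each library. Use of Y-linked reads, as a covariate or to keep 4 libraries, and the median without Fosb were added after the data were seen.

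Genes named are the members, in each further list those past the test or with the 3 largest absolute log2 fold changes, and the 10 nearest profiles (mean of at least 5 CPM and at least 0.5 of the range of the members' mean profile). Nearest profiles named with values were chosen after these were seen. Exon lengths are unions from GENCODE M21, and loci and promoters are from RefSeq in GRCm38.p6, which matched 18353 of 18404 identifiers.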

Additional observations from a re-analysis of the deposited data

How the results depend on the processing

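With 15 alternatives for each gene, 0 immediate early genes and 0 of the further early response genes were called under any of them, and the lowest adjusted p of a member was 0.426. Kdr stayed called in all 15. With each library dropped in turn, the median log2 fold change of the 10 genes lay between -0.21 (control 1 or ecko 3 dropped) and 0.090 (control 3 dropped), and it stood at -0.08 without Fosb. With 1 library left out Fos ran from -0.34 to 0.10, Fosb from -1.61 to 0.29, Jun from -0.19 to 0.075, Junb from -0.062 to 0.11, Egr1 from -0.10 to 0.16 and Dusp1 from -0.28 to 0.12. With the 4 libraries that hold Y-linked reads, that median was -0.24, Junb was at -0.019 and Egr1 at -0.016. Egr3, Ier2, Atf3 and Nr4a1 kept their direction in all 15.

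The number of genes called over the whole table depended on the model. DESeq2 called 113 (87 higher, 26 lower), the 4 libraries with Y-linked reads 4 (2 higher, 2 lower), the Y-linked covariate 2 (1 higher) and leaving out 1 library 1 to 3 (0 to 2 higher, with the most without ecko 3). The edgeR fit with a replicate block called 98 genes (88 higher, 10 lower) and 0 members, with Fosb at -0.75. Across genes, libraries of equal number had correlations of 0.162, -0.237 and -0.073 in their deviations from the group means. The largest between a control and an ecko library was 0.336, for control 2 and ecko 3, both nearly without Y-linked reads. Such correlations cannot tell whether equal numbers mark a shared litter or batch. For the differing counts the cause was not tested. With 3 libraries a group, the spread of the controls limits what could be seen most in Fosb, with an SE of 0.89.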
